A study of Homo sapiens with 2 samples.

Results

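The genes described here encode the aminoacyl-tRNA synthetases, the enzymes that load each amino acid onto its transfer RNA (tRNA), and the proteins that hold a group of them together. They were taken from a fixed list of 39 genes by Entrez Gene identifier, and all 39 were found among the 16085 genes and loci listed in either library. Of these, 20 encode cytosolic synthetases, 16 encode mitochondrial synthetases, whose names end in 2, and 3 encode scaffold proteins (AIMP1, AIMP2 and EEF1E1). RNA was sequenced after poly(A) selection in 1 shZEB1 library, from cells labelled MDA-MB-231 carrying a knockdown of ZEB1, and in 1 shCtrl library, from cells of the same label named as the control. MDA-MB-231 is an established line from a human triple-negative breast carcinoma, and ZEB1 encodes a transcription factor that represses epithelial genes such as that of E-cadherin. The labels used here name no hairpin, vector or clone. The study asked which genes of the cancer cells connect ZEB1 with the state of tumour macrophages.

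Synthetases fall into class I and class II, which differ in the fold of the catalytic domain. In human cells most enzymes of the cytosol and of the mitochondrion come from separate nuclear genes, while GARS1 and KARS1 each encode both forms. Several cytosolic enzymes sit in a multisynthetase complex with AIMP1, AIMP2 and EEF1E1. When amino acids run short or proteins misfold, phosphorylation of the initiation factor eIF2 favours translation of ATF4, a transcription factor known to drive amino acid transporters, biosynthetic enzymes and a number of cytosolic synthetases. WARS1, the cytosolic tryptophan enzyme, is also known as a gene induced by interferon.

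The shZEB1 library held 8441491 assigned reads and the shCtrl library 8740584. With 1 library per group there was no replicate and no test, so every difference is between 2 libraries and the spread between cultures is unknown. In such bulk RNA, fewer cells of a type and less RNA per cell cannot be told apart. ZEB1 had an FPKM (fragments scaled by gene length and library depth) of 0.31 in shZEB1, from 15 reads, against 0.88 in shCtrl, from 46 reads. The read ratio was 0.338 (95% interval 0.175 to 0.616). With an FPKM under 1 in both libraries, ZEB1 did not count as measured by the rule given below. Its log2 ratio of -0.52 also fell short of 1.5-fold. The markers matched the labelled breast line only in part, and those of melanocytes went against that label. The identity of the cells was not tested. All 10 melanocyte markers were measured, with a median FPKM of 123 in shZEB1 and 150 in shCtrl. They ran from 22.6 (GPR143) to 405 (PMEL) in shZEB1 and from 18.8 to 703 in shCtrl for the same genes. Of 10 basal-type breast line markers 5 were measured, with a median of 58.7 in shZEB1 and 46.6 in shCtrl. Of these 5, MSN, CD44, KRT18 and CAV1 had an FPKM of at least 44.0 in shZEB1 and 40.5 in shCtrl, and KRT7 had 1.67 in shZEB1 and 0.74 in shCtrl. EGFR, KRT14 and KRT17 stayed under an FPKM of 1 in both libraries, and KRT5 and KRT19 were in neither file. Of the melanocyte markers, the interval of the read ratio lay below 1 for 5 and above 1 for 1. No macrophage marker of 6 was measured, with PTPRC, CD163 and TYROBP in neither file, and 2 of 6 fibroblast markers, LUM and FAP, were measured, at a median FPKM of 1.59 in shZEB1 and 0.930 in shCtrl. The part of these markers in the results below was not tested.

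Differences are given as a log2 ratio, log2((FPKM shZEB1 + 1)/(FPKM shCtrl + 1)), and as a read ratio with an exact 95% binomial interval that covers counting error only. A gene counted as measured where its FPKM reached 1 in either library, and all 39 genes did. Genes were counted at 2-fold, where the FPKM + 1 differed by at least that factor, and likewise at 1.5-fold, in each case only if the interval excluded a read ratio of 1.

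**Figure D1:**
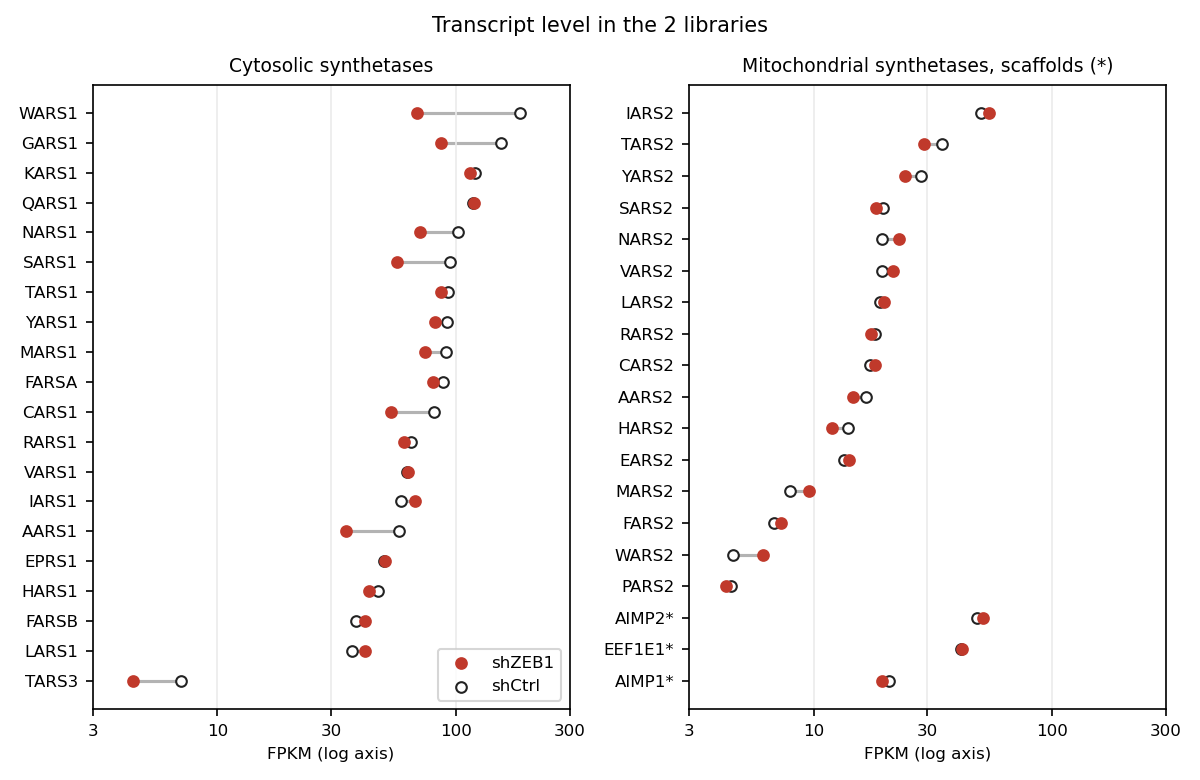
FPKM (log axis) of each cytosolic synthetase on the left and of each mitochondrial synthetase and scaffold protein on the right, with filled points for the shZEB1 library and open points for the shCtrl library. WARS1 shows the widest gap, at 68.9 in shZEB1 and 186 in shCtrl, while the points of most mitochondrial genes lie close together.

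Cytosolic synthetases were the lower group in shZEB1, and a minority of them carried the difference. Of the 20, 5 were counted as lower at 1.5-fold (against 5.41% of all 12274 measured genes and loci), namely WARS1, GARS1, SARS1, AARS1 and CARS1, and 0 as higher (4.97% of all). At 2-fold only WARS1 was counted as lower (1.61% of all) and none as higher (0.937% of all). Of the 16 mitochondrial synthetases, 0 were counted at 1.5-fold in either direction. With shares of 5.41% lower and 4.97% higher over all measured genes, a set of 16 can hold 0 without standing apart. GARS1, which encodes both forms, was placed among the cytosolic genes. The median log2 ratio was -0.13 for the cytosolic genes and 0.06 for the mitochondrial ones, against 0.02 for all measured genes. With counts scaled by edgeR the mitochondrial median was -0.04 and the cytosolic median -0.18. Together the cytosolic genes held 0.378% of all reads in shZEB1 and 0.460% in shCtrl, a read ratio of 0.821. Without WARS1 that read ratio was 0.875. The mitochondrial genes held 0.0853% in shZEB1 and 0.0845% in shCtrl.

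WARS1, which loads tryptophan, differed most among the 39 genes. It spans chr14:100333790-100376327 on hg38. Its FPKM was 68.9 in shZEB1, from 1519 reads, and 186 in shCtrl, from 4305 reads. WARS1 ranked 9 in FPKM among the 39 genes in shZEB1 and was the highest of them in shCtrl. The level was 2.70-fold lower in shZEB1, with a log2 ratio of -1.42 and a read ratio of 0.365 (interval 0.344 to 0.387). Only 0.562% of all measured genes had a lower log2 ratio. Its exons overlap those of WDR25 and of an antisense gene on the opposite strand, and no source used here gives the strand setting of the counting, so reads of such partners cannot be told apart.

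GARS1, the glycine enzyme of both compartments, came next. It lies at chr7:30594735-30634033. Its FPKM was 86.6 in shZEB1 (1764 reads) against 155 in shCtrl (3248 reads), which is 1.79-fold lower, and the read ratio was 0.562 (interval 0.530 to 0.596). GARS1 ranked 4 in FPKM among the 39 genes in shZEB1 and 2 in shCtrl.

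SARS1, AARS1 and CARS1, which load serine, alanine and cysteine, were counted as lower at 1.5-fold. SARS1 (chr1:109213893-109238182) had an FPKM of 56.9 in shZEB1 and 94.8 in shCtrl, with a read ratio of 0.603 (interval 0.555 to 0.654). AARS1 (chr16:70252298-70289506) had 34.5 in shZEB1 and 58.0 in shCtrl. Its read ratio of 0.672 (interval 0.625 to 0.721) was nearer to 1 than its FPKM ratio of 0.594, because the gene length used by the authors was 4357 bases in shZEB1 and 3871 in shCtrl. CARS1 (chr11:3000929-3057423) had an FPKM of 53.5 in shZEB1 and 81.4 in shCtrl, with a read ratio of 0.668 (interval 0.620 to 0.719). Its log2 ratio of -0.60 lay just past the 1.5-fold threshold, and CARS1 was no longer counted when FPKM was rescaled to TPM.

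NARS1 and TARS3 lay just short of that threshold. NARS1, the asparagine enzyme (chr18:57600656-57621836), had an FPKM of 70.7 in shZEB1 and 102 in shCtrl, with a log2 ratio of -0.53 and a read ratio of 0.693 (interval 0.651 to 0.737). TARS3, a threonyl-tRNA synthetase-like gene, was the scarcest cytosolic member, with an FPKM of 4.45 from 101 reads in shZEB1 and 7.02 from 131 reads in shCtrl. Its log2 ratio of -0.56 was not matched by its reads, whose ratio was 0.798 with an interval that included 1 (0.610 to 1.04). The length assigned to TARS3 was 2735 bases in shZEB1 and 2192 in shCtrl.

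Smaller differences were found in MARS1, YARS1, FARSA and TARS1, whose intervals lay below 1. MARS1, which loads methionine, had an FPKM of 74.6 in shZEB1 and 90.9 in shCtrl, with a read ratio of 0.823 (interval 0.774 to 0.876). Its exons overlap 355 bases of DDIT3, a stress-response gene on the opposite strand, which had 133 reads in shZEB1 and 283 in shCtrl. YARS1, the tyrosine enzyme, had a read ratio of 0.894. FARSA, the alpha subunit of the phenylalanine enzyme, had a read ratio of 0.913 and TARS1, the threonine enzyme, 0.940. FARSB, the beta subunit that pairs with FARSA, had an FPKM of 41.7 in shZEB1 and 38.0 in shCtrl, with a read ratio of 1.10 and an interval from 0.999 to 1.21.

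IARS1 and LARS1, which load the branched-chain amino acids isoleucine and leucine, lay the other way. IARS1 had an FPKM of 67.7 in shZEB1 and 59.2 in shCtrl, with a read ratio of 1.14 (interval 1.08 to 1.21). LARS1 had 41.6 in shZEB1 and 36.9 in shCtrl, with a read ratio of 1.13 (interval 1.06 to 1.22). These were the only cytosolic genes whose interval lay above 1. VARS1, the valine enzyme, had an FPKM of 63.2 in shZEB1 and 62.4 in shCtrl, and its interval of 0.957 to 1.08 included 1.

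By the interval alone, 10 of the 20 cytosolic genes were lower and 2 higher, against 21.4% lower and 27.9% higher of all measured genes. That measure depends on read number. Among genes with at least 500 reads in shCtrl the shares over all genes were 32.2% lower and 31.7% higher, and of the 19 cytosolic genes with that many, 10 were lower and 2 higher. At 1.5-fold, 5.38% of genes with that many reads were lower and 1.27% higher, and the 5 cytosolic genes counted as lower all had that many. Mitochondrial genes had fewer reads, with a median of 342 in shZEB1 and 375 in shCtrl, against 1700 in shZEB1 and 2135 in shCtrl for cytosolic ones.

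**Figure D2:**
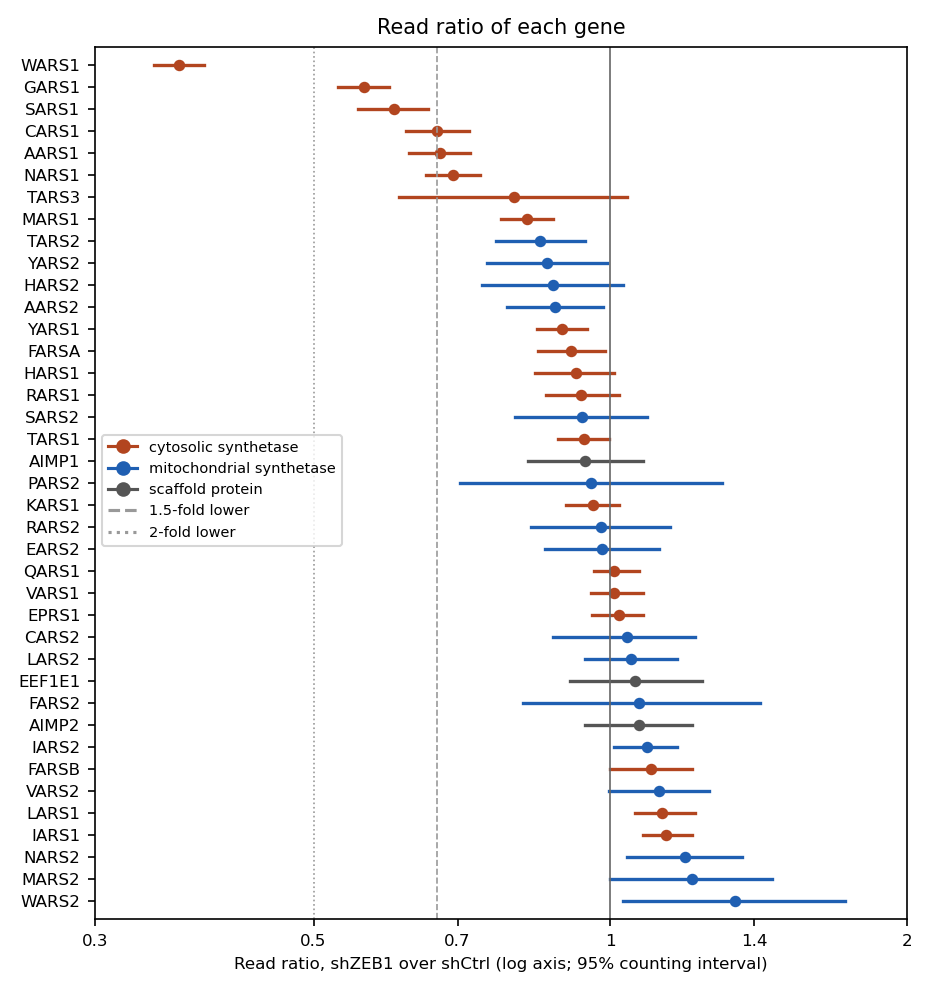
Read ratio of shZEB1 over shCtrl for each of the 39 genes on a log axis, with bars for the 95% counting interval and colours for cytosolic, mitochondrial and scaffold genes. The lowest 8 genes are cytosolic, from WARS1 at 0.365 to MARS1 at 0.823, and the mitochondrial genes lie between 0.849 and 1.34.

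The genes of the multisynthetase complex differed little between the libraries. Its 10 members among these genes had a median log2 ratio of 0.02 (-0.03 on counts scaled by edgeR or DESeq2), with a range from -0.28 (MARS1) to 0.19 (IARS1). At 1.5-fold 0 were counted, beside 5.41% lower and 4.97% higher of all measured genes. At such shares a list of 10 can hold 0 without standing apart. By the interval alone MARS1 was lower and IARS1 and LARS1 were higher, against 21.4% lower and 27.9% higher of all measured genes. EPRS1, which loads both glutamate and proline, had an FPKM of 50.6 in shZEB1 and 49.8 in shCtrl. QARS1, the glutamine enzyme, had 119 in shZEB1 and 118 in shCtrl, and KARS1, the lysine enzyme, had 115 in shZEB1 and 120 in shCtrl. RARS1, the arginine enzyme, had 60.5 in shZEB1 and 64.9 in shCtrl. For these 4 genes the interval included 1, although for KARS1 and RARS1, and for HARS1 outside the complex, it lay below 1 when counts were scaled by edgeR or DESeq2. The 7 cytosolic synthetases of the complex together had a summed read ratio of 1.00. The 13 cytosolic synthetases outside it, WARS1 included, had 0.717 and a median log2 ratio of -0.53. The genes counted as lower at 1.5-fold were all among those 13. HARS1, the histidine enzyme, is also among them, with an interval of 0.839 to 1.01.

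The scaffold genes of the complex showed no difference beyond counting error at this depth. AIMP1, also known as the precursor of a secreted cytokine, had an FPKM of 19.4 in shZEB1 and 20.7 in shCtrl. AIMP2, a core scaffold, had 51.5 in shZEB1 and 48.5 in shCtrl, and EEF1E1, which links the complex with elongation factors, had 41.9 in shZEB1 and 41.3 in shCtrl. The widest of their 3 intervals, that of EEF1E1, ran from 0.911 to 1.24. EEF1E1 shares exons with a read-through gene, and AIMP2 overlaps EIF2AK1 on the opposite strand.

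Classes I and II were compared within each compartment. The 10 cytosolic class I genes had a median log2 ratio of -0.04 and the 10 cytosolic class II genes -0.33. Of those counted as lower, WARS1 and CARS1 are class I and GARS1, SARS1 and AARS1 class II. Mitochondrial class I genes had a median of 0.06 and class II genes -0.10.

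Mitochondrial synthetases differed less, and in both directions. Their FPKM ran from 4.28 (PARS2, proline) to 54.4 (IARS2, isoleucine) in shZEB1 and from 4.49 to 50.1 in shCtrl for the same genes. The interval lay below 1 for 3 of the 16 genes and above 1 for 4, beside 21.4% lower and 27.9% higher of all measured genes. Of the 5 mitochondrial genes with at least 500 reads in shCtrl, 2 were lower and 1 higher. The shares over all genes with that many reads were 32.2% lower and 31.7% higher. TARS2, the threonine enzyme, had 664 reads in shZEB1 and 810 in shCtrl, with a read ratio of 0.849 (interval 0.765 to 0.942). YARS2 (tyrosine) had a read ratio of 0.862 and AARS2 (alanine) 0.879, with intervals ending at 0.992 and 0.983.

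On the higher side were WARS2, NARS2, MARS2 and IARS2. WARS2, the mitochondrial tryptophan enzyme, had an FPKM of 6.10 from 142 reads in shZEB1 and 4.57 from 110 reads in shCtrl, with a read ratio of 1.34 (interval 1.03 to 1.73). NARS2 (asparagine) had 22.7 in shZEB1 and 19.4 in shCtrl, with a read ratio of 1.19 (interval 1.04 to 1.36). MARS2 (methionine) had a read ratio of 1.21, with an interval starting at 1.00, and IARS2 had 1.09. Of these 4, only NARS2 kept an interval above 1 when counts were scaled by edgeR or DESeq2. For the other 9 genes the interval included 1. They are the enzymes for cysteine (CARS2), glutamate (EARS2), phenylalanine (FARS2), histidine (HARS2), leucine (LARS2), proline (PARS2), arginine (RARS2), serine (SARS2) and valine (VARS2). VARS2 shares 1858 exon bases with GTF2H4 and SARS2 shares 1492 with a neighbouring gene, both on the same strand, so the division of reads leaves these values uncertain.

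For 13 amino acids a single cytosolic gene could be set beside a single mitochondrial one. In both libraries the cytosolic enzyme had the higher FPKM in 13 of the 13 pairs, with a median level ratio of 3.12 in shZEB1 and 3.48 in shCtrl. The ratio of the read ratios, with its exact conditional interval, compares the difference between libraries within a pair. It lay below 1 for 6 pairs, above 1 for 0, and included 1 for 7. For tryptophan it was 0.273 (interval 0.210 to 0.356), and the level of WARS1 was 11.3 times that of WARS2 in shZEB1 and 40.7 times in shCtrl. The other 5 pairs were asparagine (0.582), serine (0.644), cysteine (0.645), methionine (0.682) and alanine (0.764). In the pairs for isoleucine, leucine, threonine, tyrosine, histidine, arginine and valine both enzymes had like ratios, from 0.906 for valine to 1.11 for threonine. HARS1 and HARS2 overlap each other on opposite strands. The median difference over the 13 pairs was -0.14 on the log2 scale, with a range from -1.77 to 0.15.

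**Figure D3:**
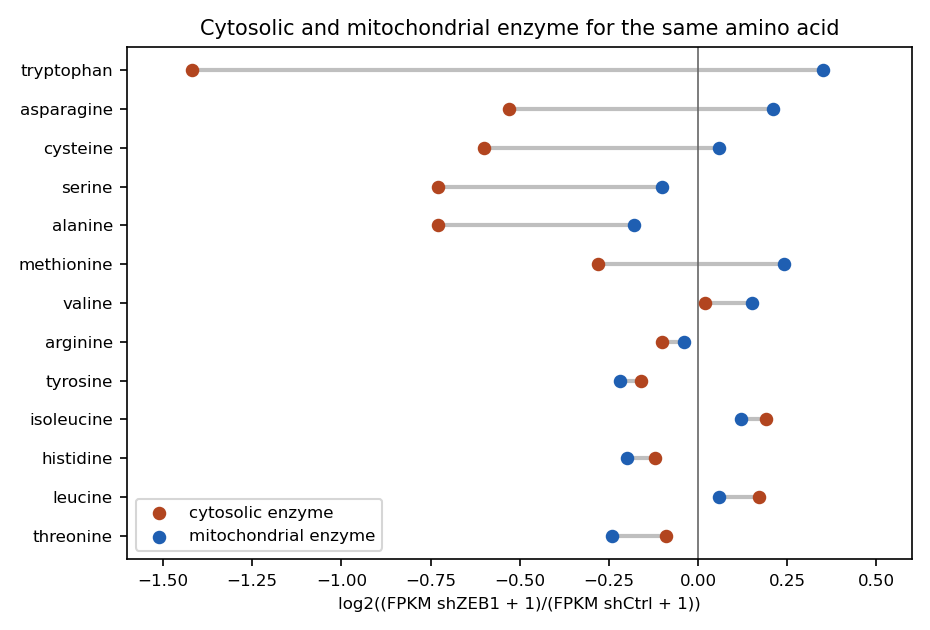
Log2 ratio of the cytosolic (TARS1 for threonine) and of the mitochondrial enzyme for each of 13 amino acids, joined by a line and ordered by their difference. The cytosolic point lies far to the left for tryptophan (-1.42 against 0.35), and by 0.52 to 0.74 for asparagine, cysteine, serine, alanine and methionine, while the other pairs lie within 0.15 of each other.

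Cytosolic synthetases reported as targets of ATF4 held all of the genes counted as lower. This list of 11 (AARS1, CARS1, EPRS1, GARS1, IARS1, MARS1, NARS1, SARS1, TARS1, WARS1 and YARS1) had a median log2 ratio of -0.53 and -0.40 without WARS1. The interval lay below 1 for 9 and above 1 for IARS1. The 9 cytosolic genes outside the list had a median of -0.07, and their summed read ratio was 0.999. The list was taken up with these values known and is not independent of them. It is not uniform, since EPRS1 and IARS1 were not lower.

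Other genes of the amino acid response lay lower than the synthetases. All 36 on the list were measured, with a median log2 ratio of -0.69. At 1.5-fold 20 were counted as lower and 0 as higher, against 5.41% lower and 4.97% higher of all measured genes. A log2 ratio below 0 was found for 35, against 46.7% of all measured genes. CHAC1, which degrades glutathione, had an FPKM of 2.48 in shZEB1 and 15.4 in shCtrl. PSAT1 of serine synthesis had 29.6 in shZEB1 and 115 in shCtrl, and the transcription factor genes ATF3 and CEBPB had log2 ratios of -1.48 and -1.43. ATF4 itself, named after its value was seen, had 248 in shZEB1 and 350 in shCtrl, with a read ratio of 0.712 (interval 0.679 to 0.746). The tRNA exporter gene XPOT, likewise named after its value was seen, had 53.9 in shZEB1 and 57.2 in shCtrl, and its interval of 0.886 to 1.01 included 1.

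Of 9 genes for eIF2 kinases and regulators, PPP1R15A and EIF2S1 were counted as lower at 1.5-fold and 0 as higher. Of all measured genes, 5.41% were lower and 4.97% higher by that rule. PPP1R15A, which directs a phosphatase to eIF2, had an FPKM of 37.1 in shZEB1 and 83.2 in shCtrl. EIF2S1, the subunit of eIF2 that is phosphorylated, had 696 reads in shZEB1 and 1215 in shCtrl, with a log2 ratio of -0.73. PPP1R15B, a relative of PPP1R15A, had a log2 ratio of -0.38, and the kinase gene EIF2AK1 had 0.26. The median over the list was 0.02 (-0.03 on counts scaled by edgeR).

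Genes that act on the loaded tRNA showed no common difference. The 12 for aminoacyl-tRNA handling and cytosolic elongation had a median log2 ratio of -0.03 (0.02 with TPM), and 0 were counted as higher at 1.5-fold (4.97% of all measured genes). PSTK, EEF1A2 and PTRH2 had log2 ratios of -0.31, -0.30 and -0.27. Of 13 mitochondrial translation factors 0 were counted in either direction, and the median was 0.03. With shares of 5.41% lower and 4.97% higher over all measured genes, a list of this size can hold 0 without standing apart. MTFMT, which formylates the initiator methionyl-tRNA of mitochondria, had 8.89 in shZEB1 and 6.22 in shCtrl. MTIF3 and MTRF1L both had a log2 ratio of -0.34, and GFM2 had 0.17.

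Interferon response genes, set beside WARS1, were lower in shZEB1. Of 13 measured, 11 were counted as lower at 1.5-fold and 0 as higher, against 5.41% lower and 4.97% higher of all measured genes. By the interval alone 12 were lower and 1 higher, against 21.4% lower and 27.9% higher of all measured genes. The median log2 ratio was -0.89, against -1.42 for WARS1, and the range ran up to 0.51. IFI6, BST2, ISG15 and IRF9 had the lowest log2 ratios, at -2.58, -2.55, -1.97 and -1.96. The part of either list in the value of WARS1 was not tested.

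**Figure D4:**
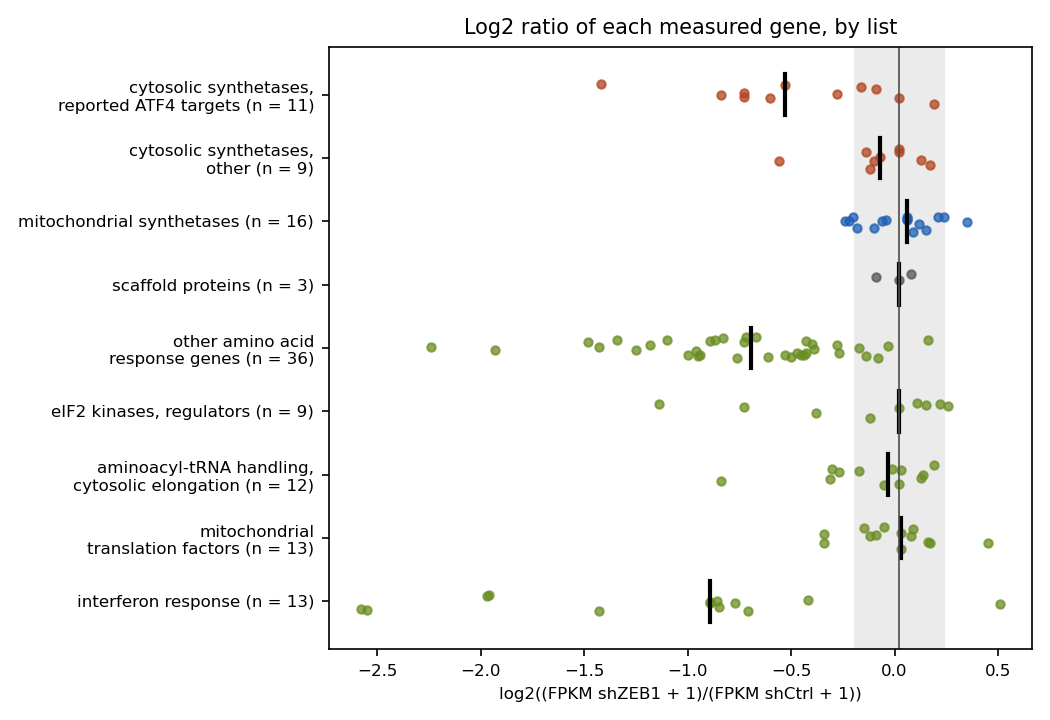
Log2 ratio of each measured gene by list, with points for genes, black bars for the list median, a thin line for the median of all measured genes (0.02) and a grey band between their quartiles (-0.19 and 0.24). The ATF4-target synthetases (median -0.53) lie between the other amino acid response genes (-0.69) and the remaining cytosolic, mitochondrial and scaffold genes, whose medians lie between -0.07 and 0.06.

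Short stretches of promoter were examined because ATF4 is known to bind a C/EBP-ATF response element. RefSeq windows on GRCh38.p14, from 250 bases before to 50 after each annotated start site, were matched for 33 of the 39 genes (not for LARS1, TARS3, VARS1, YARS1, AARS2 and VARS2). TGATGNAA was searched on both strands. It was found in 7 of 16 cytosolic, 1 of 14 mitochondrial and 0 of 3 scaffold genes with a window, against 2.60% of 9546 measured genes and 3.62% of all 35116 windows. The stricter TGATGCAA was found in 6 of the 16 cytosolic genes and in 0 of the 14 mitochondrial ones, against 0.691% of measured genes. Of the other amino acid response genes with a window, TGATGNAA was found in 9 of 30. The motif was chosen with the values known, and a match is a description of letters, not a binding site. The stretches of the 7 cytosolic genes show these letters, in capitals, with the bases beside them, written 5′ to 3′ on the strand of the gene.
GARS1, chr7:30594834-30594863, + strand: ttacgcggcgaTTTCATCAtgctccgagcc
AARS1, chr16:70289675-70289704, - strand: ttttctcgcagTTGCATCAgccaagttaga
CARS1, chr11:3057407-3057436, - strand: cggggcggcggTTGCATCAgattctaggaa
NARS1, chr18:57621804-57621833, - strand: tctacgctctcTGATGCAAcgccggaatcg
MARS1, chr12:57488053-57488082, + strand: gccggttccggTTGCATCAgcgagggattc
TARS1, chr5:33440956-33440985, + strand: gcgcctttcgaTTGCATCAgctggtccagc
IARS1, chr9:92293692-92293721, - strand: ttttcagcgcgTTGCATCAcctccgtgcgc

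Of these 7 matches, 5 share the letters TTGCATCA in the direction of the gene, NARS1 holds their reverse complement, and GARS1 holds TTTCATCA between its annotated start sites. The match began 187 bases before the start site in AARS1, 13 in IARS1, 4 in MARS1 and 2 in CARS1. In GARS1 it began 33 before the downstream start. In NARS1 it began at base 15 of the transcript, and in TARS1 at base 3 counted from the downstream of its start sites. The 7 genes had a median log2 ratio of -0.53, with a range from -0.84 (GARS1) to 0.19 (IARS1), and 3 were counted as lower at 1.5-fold. The 9 cytosolic genes whose window held no match had a median of -0.10, and they include WARS1 and SARS1, both counted as lower. Over all measured genes with a match, the median log2 ratio was -0.04, and 9.68% were counted as lower at 1.5-fold, against 4.89% of all measured genes with a window.

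Letters known from interferon-responsive promoters were searched in all windows as well, and the matches are shown for WARS1. The window of its downstream start site held TTCNNNGAA, which reads the same on both strands (found in 8.39% of measured genes) beginning 142 bases before the start and the interferon-stimulated response element, searched on both strands as GAAA, any 2 bases and GAAA (3.77% of measured genes), beginning 55 before it. Among the interferon response genes with a window, 5 of 11 held the first and 7 of 11 the second. These letters were not particular to WARS1. Of the 33 genes described here with a window, 5 held the first (WARS1, CARS1, TARS1, PARS2 and WARS2). The second was held by 2, WARS1 and EARS2. Both matches of WARS1 are in capitals.
WARS1, chr14:100375471-100375499, - strand: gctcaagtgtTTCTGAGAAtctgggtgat
WARS1, chr14:100375383-100375412, - strand: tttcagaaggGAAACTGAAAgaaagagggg

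The letters CACCTG, known as a binding motif of ZEB1, were searched on both strands. A match was found in 8 of the 33 genes with a window, against 22.9% of measured genes. These genes were IARS1, MARS1, FARSA, WARS2, NARS2, AIMP1, AIMP2 and EEF1E1, and none of the genes counted as lower at 1.5-fold was among them. The genes counted as lower are too few for that absence to be read against a share of 22.9%. Of all measured genes with these letters, 3.93% were counted as lower at 1.5-fold, against 4.89% of all measured genes with a window. The part of ZEB1 binding was not tested.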

How the data were processed

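The genome build was hg38 and the software DESeq, RSEM 1.2.8, Bowtie2 2.2.5 and HISAT2 2.1.0, as listed without settings by the submitters' processing notes. Per the file headers, the authors deposited an expected count and an FPKM value for each gene and library, with a gene length. Expected counts were rounded to whole numbers for intervals and scalings. For 7 of the 39 genes they were not whole, since reads were shared between models. Symbols and coordinates came from RefSeq (GRCh38.p14), by Entrez identifier, and exon overlaps from GENCODE release 29, in which 22 of the 39 genes overlap another gene.

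With 1 library per group no dispersion can be estimated, so edgeR and DESeq2 gave scalings only. The read interval is the exact conditional binomial (Clopper-Pearson) interval scaled by library totals. It takes reads as independent, which PCR copies are not. The 1.5-fold rule was tested on simulated data that held counting error only, and the 2-fold rule was not. All 39 genes are named, with ZEB1 and up to 4 measured genes of largest absolute log2 ratio from each companion list. One companion gene is not reported here. The members and lists were chosen with earlier results of these data known. Alternatives were a pseudocount of 0.1, TPM, edgeR 4.0.16 TMM, DESeq2 1.42.0 size factors, FPKM minimums and left-out genes. Computation used Python 3.11.15, SciPy 1.17.1 and R 4.3.3.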

Additional observations from a re-analysis of the deposited data

How the results depend on the processing

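The 39 log2 ratios were recomputed with a pseudocount of 0.1, with TPM and with counts scaled by edgeR or DESeq2. Of 156 values, 153 moved by less than the counting interval allows, 3 by more, and 0 of the genes whose interval excluded 1 changed sign. The 3 were AARS1 (-0.63 with edgeR, -0.62 with DESeq2, against -0.73) and WARS1 (-1.51 with edgeR, against -1.42). The genes counted as lower at 1.5-fold were the same 5 cytosolic ones under each, except that CARS1 was lost with TPM, which also left 1 class I gene in place of 2. The mitochondrial genes with an interval above 1 fell to 1 with edgeR and 1 with DESeq2, against 4. The genes with an interval below 1 came to 13 cytosolic (adding HARS1, KARS1 and RARS1) and 4 mitochondrial (adding HARS2) with either, against 10 and 3. The interferon response list, with 0 counted as higher, had 1 with the pseudocount of 0.1, with TPM, with edgeR and with DESeq2. The cytosolic median ran from -0.18 to -0.08, and was -0.12 without WARS1 (an alternative chosen after seeing the data) and -0.13 without GARS1 and KARS1. The mitochondrial median changed sign, at -0.04 with edgeR and DESeq2 and 0.11 with TPM, and so did the class I median, at -0.03 with edgeR and DESeq2 against 0.02. No paired analysis was possible because each group has 1 library. Depth limits the mitochondrial genes most: PARS2, with 85 reads in shZEB1 and 92 in shCtrl, had an interval from 0.704 to 1.30.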

Other observations

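The authors' gene length differed by more than 2% between the libraries for 4 of the 39 genes, TARS3, AARS1, EARS2 and EEF1E1. It was 3741 bases in shZEB1 and 3979 in shCtrl for EARS2, whose FPKM ratio was 1.04 and read ratio 0.981. For EEF1E1 it was 1003 bases in shZEB1 and 966 in shCtrl, with an FPKM ratio of 1.01 and a read ratio of 1.06.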
